A study of Caenorhabditis elegans with 39 samples.

Results

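The lin-4 and mir-237 hairpins each give a 5p and a 3p microRNA (miRNA) arm, and these 4 arms, lin-4-5p, lin-4-3p, miR-237-5p and miR-237-3p, were taken from the table by name. They are 4 of 437 miRNA entries in the series, and all 4 were among the 243 entries with enough reads to be tested. The series sequenced small RNA from whole Caenorhabditis elegans larvae of 3 genotypes in 39 libraries. N2 is the standard wild type (genotype WT in the labels), and the alg-1 mutant genotypes are called Alg1A and Alg1E, both with N2 as strain background. The labels leave the letters A and E unexplained and name no allele, clone or culture. Worms grew at 25 degrees and were collected hourly, 18 to 30 h after synchronized L1 larvae were plated, which gave 13 libraries a genotype, 1 an hour. Hours therefore stand in for replicates, and what a p-value sets a difference against is the scatter of hourly libraries, part of which may be technical. Small RNA libraries do not measure the alg-1 mRNA, so the genotypes could not be checked by it. The title of the series concerns phosphorylation of the Argonaute ALG-1 and its binding of miRNAs.

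lin-4 is the founding miRNA. It represses lin-14 and lin-28 and so lets larvae leave the programme of the first larval stage. miR-237 is the other C. elegans member of the lin-4 family: its 5p arm has the same seed, the short stretch near the 5′ end that pairs with target mRNAs, and the family is related to miR-125 of other animals. After the hairpin is cut, an Argonaute such as ALG-1 keeps 1 strand of the duplex as the guide, and the other strand, the passenger, is usually lost. In both hairpins the 5p arm is the guide and the 3p arm the passenger.

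The lin-4 hairpin lies on chromosome II from 5902254 to 5902347 (+ strand, WBcel235, the same assembly as ce11), in an intron of the protein-coding gene F59G1.4 on the same strand. A non-coding RNA gene on the opposite strand, F59G1.10, covers it from 5902211 to 5902355. The sources used here do not say whether counting used strand, so reads of that gene cannot be told apart from lin-4 reads on this ground. The mir-237 hairpin is intergenic on chromosome X from 8154084 to 8154182 (+ strand). Its nearest protein-coding genes are F22F1.2, 3362 bases to the left, and hil-3, 4986 bases to the right.

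miRNA reads per library ranged from 1146950 to 4668890, with a median of 3529334 for N2, 2892326 for Alg1A and 2105603 for Alg1E. Of all Alg1E reads, 49.5% ± 11.4 fell on no annotated feature, beside 37.2% ± 9.48 for N2 and 35.3% ± 9.64 for Alg1A (SD over 13 hours). Markers of muscle (miR-1-3p), intestine (miR-60-3p), neurons (3 of 3 listed) and embryos (8 of 8 listed) were all detected. The Alg1A libraries of 18 and 19 h stood apart, with miR-1-3p at 36473 and 17158 CPM against at least 66519 CPM in N2. So did the Alg1E library of 27 h, which held the lowest miR-60-3p of its genotype (8050 CPM against an Alg1E median of 18454). In these whole-worm libraries, fewer cells that make a miRNA and less of it per cell cannot be told apart. CPM is counts-per-million of miRNA reads after TMM scaling, and it is not corrected for how well each sequence is captured.

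The guide arm lin-4-5p was among the most abundant miRNAs in all genotypes, and miR-237-5p had far fewer reads. In N2, lin-4-5p ranged from 22887 to 37481 CPM with a median of 28008. The Alg1A libraries ran from 19861 to 59078 CPM (median 26256) and the Alg1E libraries from 17138 to 31728 CPM (median 21391). By mean level it held place 10 of 243 in N2, place 7 in Alg1A and place 8 in Alg1E. The highest Alg1A value, 59078 CPM, belonged to the 19 h library that stood apart, and the highest Alg1E value to the 27 h library. The groups overlapped, although 9 of 13 Alg1E libraries lay below every N2 library with TMM scaling. This count was not made with other scalings, nor for other miRNAs, so it does not set lin-4-5p apart.

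In N2, miR-237-5p ranged from 2068 to 5121 CPM with a median of 3042. It lay between 1750 and 3574 CPM in Alg1A (median 2655) and between 1076 and 4500 CPM in Alg1E (median 2325). Its highest N2 value was at 23 h and its highest Alg1E value was in the 27 h library. Here 6 of 13 Alg1E libraries lay below every N2 library, those of 18 to 23 h, with 1076 to 1607 CPM. That count, too, rests on TMM scaling and was not set against other miRNAs. From 24 h on, Alg1E lay at 2325 to 4500 CPM and N2 at 2901 to 3903 CPM.

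**Figure D1:**
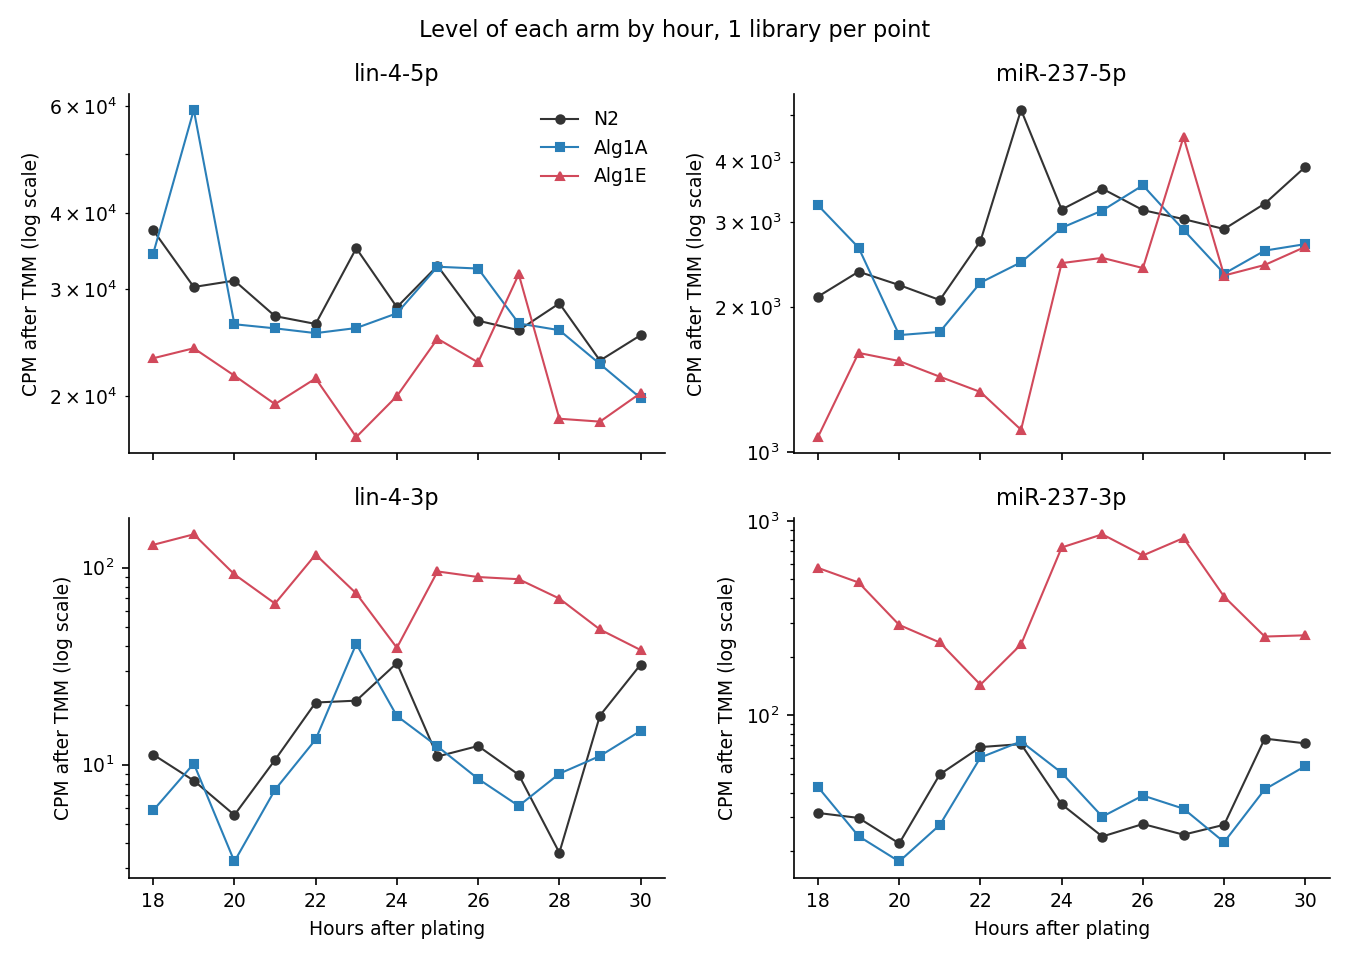
Level of lin-4-5p, miR-237-5p, lin-4-3p and miR-237-3p in CPM after TMM (log scale) against hours after plating, 1 library per point, for N2 (black circles), Alg1A (blue squares) and Alg1E (red triangles). The 3p arms of Alg1E lie above those of N2 at each of 13 hours, while the 5p arms of the 3 genotypes overlap.

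Against N2, 4 of 4 arms were called in Alg1E by edgeR and by DESeq2, where 74.9% of all tested miRNAs were called by edgeR. Both guide arms were lower in Alg1E with TMM scaling. The edgeR log2 difference was -0.42 for lin-4-5p (SE 0.100, adjusted p = 0.000434) and -0.58 for miR-237-5p (SE 0.146, adjusted p = 0.000768), each lower at 12 of 13 hours. In this comparison 38.7% of all tested miRNAs were called lower and 36.2% higher, so a call by itself sets neither arm apart. Among 96 hairpins with both arms tested, the arm with more reads was called lower in 65 and higher in 5, with a median of -0.48. Markers of other tissues moved in the same comparison. miR-60-3p (intestine) was called lower in Alg1E (-0.71, edgeR adjusted p = 0.00100; median 18454 CPM against 30655 in N2), and miR-1-3p (muscle) had a median of 110150 CPM against 82865 (0.33, edgeR adjusted p = 0.0569). The summed neuron markers ranged from 88.9 to 417 CPM in Alg1E and from 179 to 367 in N2, and the summed embryo markers from 2428 to 4397 and from 2616 to 4961. Single neuron markers went both ways: lsy-6-3p (0.50) and miR-791-3p (0.52) were called higher and miR-124-3p (-0.44) lower. Of the embryo markers, miR-35-3p, miR-36-3p, miR-37-3p, miR-38-3p and miR-40-3p were called lower, and miR-39-3p, miR-41-3p and miR-42-3p were not called. Those called ran from -0.37 (miR-38-3p) to -1.09 (miR-40-3p), beside the median of -0.48 over the arms with more reads. All these marker calls used TMM, and their values under other scalings are not given. The part of the tissues behind these markers in the decrease of the guide arms was not tested. The decrease depended on scaling. With TMM computed from major arms, the arm of each hairpin with more reads, lin-4-5p differed by 0.017 (edgeR adjusted p = 0.887) and miR-237-5p by -0.14 (edgeR adjusted p = 0.368). That scaling moved the median of all miRNAs by 0.44 and turned the split of 88 higher and 94 lower into 125 and 52. With total counts as library size the split was 114 and 65, the median moved by 0.27, lin-4-5p was not called (-0.15, edgeR adjusted p = 0.122) and miR-237-5p was (-0.30, edgeR adjusted p = 0.0457). Matched with N2 libraries 2 h younger, the differences were -0.59 for lin-4-5p and -0.55 for miR-237-5p (edgeR adjusted p = 0.000137 and 0.00160). On odd hours alone, lin-4-5p was not called (-0.40, edgeR adjusted p = 0.0833). Without the 3 libraries that stood apart, a choice made after seeing the data, the differences were -0.52 and -0.72 (edgeR adjusted p = 5.22e-07 and 8.00e-06). That choice drops the Alg1E library of 27 h, the 1 hour of 13 at which the guide arms were higher in Alg1E (0.31 and 0.56).

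In Alg1A, 0 of the 4 arms were called against N2 by edgeR or DESeq2, and 0 had an unadjusted p under 0.05 with either tool. Of all tested miRNAs, 10.7% were called by edgeR, 8.64% higher and 2.06% lower. The shares of all miRNAs for DESeq2 and for the unadjusted threshold are not given, so those counts have no background beside them. The log2 difference was -0.01 for lin-4-5p (95% interval -0.22 to 0.19) and -0.19 for miR-237-5p (95% interval -0.49 to 0.10). Without the Alg1A libraries of 18 and 19 h and the Alg1E library of 27 h, miR-237-5p was called lower in Alg1A (-0.35, edgeR adjusted p = 0.0400). These libraries were chosen after seeing the data. At the dropped 18 and 19 h, miR-237-5p was higher in Alg1A than in N2 (0.63 and 0.17), which held at only 3 of 13 hours. Set against Alg1A directly, 4 of 4 arms were called in Alg1E, beside 78.2% of all miRNAs. The guide arms were lower there, lin-4-5p by -0.41 on the log2 scale (edgeR adjusted p = 0.000630, SE 0.100, at 11 of 13 hours) and miR-237-5p by -0.39 (SE 0.146, edgeR adjusted p = 0.0177, at 12 of 13 hours). In that comparison 39.1% of all miRNAs were called lower. With TMM from major arms, which moved the median by 0.37 there and gave 115 higher and 52 lower in place of 95 and 95, these differences were -0.038 and -0.016 and neither was called. With total counts, which moved the median by 0.18, the split was 105 and 74, lin-4-5p was called (-0.22, edgeR adjusted p = 0.0221) and miR-237-5p was not (-0.20, edgeR adjusted p = 0.186). The call of miR-237-5p was also lost without 18 and 19 h (-0.25, edgeR adjusted p = 0.144), with no hour term (-0.32, edgeR adjusted p = 0.0899) and on odd hours (-0.28, edgeR adjusted p = 0.346), so that 5 of 25 alternatives did not call it. Without the 3 libraries that stood apart, the differences were -0.39 for lin-4-5p and -0.37 for miR-237-5p (edgeR adjusted p = 7.74e-05 and 0.0118).

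**Figure D2:**
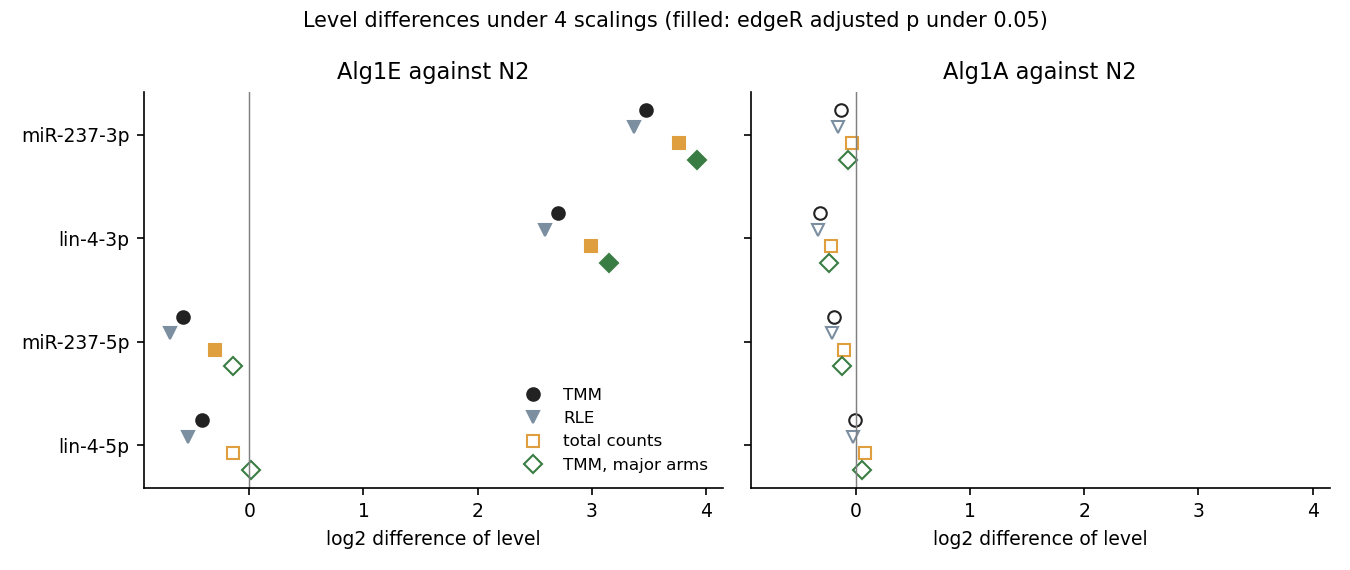
log2 difference of the level of each arm in Alg1E against N2 (left) and Alg1A against N2 (right) under 4 scalings of the libraries, with filled symbols for an edgeR adjusted p under 0.05. The 3p arms stay at 2.59 or above in Alg1E under each scaling, whereas lin-4-5p moves from -0.53 with RLE to 0.017 with TMM from major arms.

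The reads of miR-237-5p were set against those of lin-4-5p within each library, a ratio that no scaling between libraries can move. In N2, miR-237-5p made up 5.31% of the reads of both guide arms at 18 h (Wilson 95% interval 5.19 to 5.44) and 13.4% at 30 h (13.1 to 13.7). In Alg1A it went from 8.66% at 18 h and 4.30% at 19 h to 11.97% at 30 h. In Alg1E it went from 4.45% at 18 h to 11.6% at 30 h, with its highest value, 12.4%, at 27 h. These intervals cover counting error only. The log2 ratio of miR-237-5p to lin-4-5p rose with hour in N2 (Pearson r = 0.83, permutation p = 0.00054, Spearman rho = 0.77, permutation p = 0.00323), in Alg1A (r = 0.74, permutation p = 0.00199, rho = 0.80, permutation p = 0.00195) and in Alg1E (r = 0.90, permutation p = 9e-05, rho = 0.86, permutation p = 0.00034), with n = 13 hours each. Adjusted over these 3 relations by Benjamini-Hochberg, the permutation p for r was 0.00081, 0.00199 and 0.00027, and for rho 0.00323, 0.00292 and 0.00102. Without the libraries of 18 and 30 h, the hours farthest from the median, r was 0.72, 0.83 and 0.87. Neighbouring hours are not independent, which makes such p-values too small.

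The share itself averaged 9.61% ± 2.49 in N2. It averaged 8.58% ± 2.002 in Alg1A and 8.71% ± 2.76 in Alg1E (SD over 13 hours). Without the libraries that stood apart, the mean was 8.96% ± 1.68 in Alg1A (n = 11) and 8.40% ± 2.63 in Alg1E (n = 12), and r with hour was 0.85 and 0.90. Over matched hours the log2 ratio differed by -0.18 ± 0.40 between Alg1E and N2 (SD, lower at 10 of 13 hours, exact two-sided sign-flip p = 0.128, adjusted over 3 comparisons 0.192). Between Alg1A and N2 it differed by -0.17 ± 0.35, lower at 12 of 13 hours (exact sign-flip p = 0.109, adjusted 0.192). Without the libraries of 18 h, where the Alg1A library stood apart, the ratio was lower in Alg1A than in N2 by -0.25 at the mean (exact sign-flip adjusted p = 0.00146). It was the only 1 of 13 cases with an hour left out that passed. The cases ran from -0.25 to -0.12, with an adjusted p up to 0.384 (exact sign-flip). Leaving out 18 h drops the highest hourly difference (0.76) and keeps the lowest (-0.80 at 19 h, where the Alg1A library also stood apart). Against N2 libraries 2 h younger, the difference was 0.010 for Alg1A and 0.044 for Alg1E (exact sign-flip adjusted p = 0.911 for both). Between Alg1E and Alg1A it was -0.01 ± 0.45 (exact sign-flip p = 0.965). The Alg1E share was below that of N2 by the most at 22 h (5.87% against 9.43%) and 23 h (6.10% against 12.8%), and from 24 h on the genotypes lay between 8.37% and 13.4%.

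**Figure D3:**
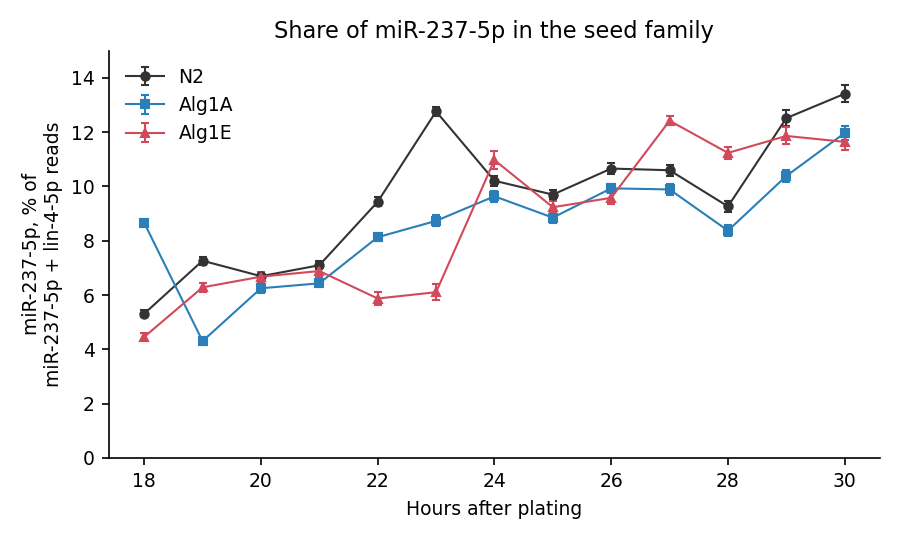
Reads of miR-237-5p as a percentage of the reads of miR-237-5p and lin-4-5p together, by hour and genotype, with Wilson 95% intervals of each library. The share runs from 5.31% to 13.4% between 18 and 30 h in N2, and Alg1E lies at 5.87% and 6.10% at 22 and 23 h, where N2 is at 9.43% and 12.8%.

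The passenger arms were rare in N2 and much more abundant in Alg1E. In N2, lin-4-3p ranged from 3.57 to 32.7 CPM with a median of 11.2. It ranged from 3.22 to 41.0 CPM in Alg1A (median 10.1) and from 38.1 to 147 CPM in Alg1E (median 87.2). All 13 Alg1E libraries lay above every N2 library, as for 20.6% of tested miRNAs, and 11 of 13 above every Alg1A library. The counts behind lin-4-3p are small, 9 to 107 reads for N2, 8 to 110 for Alg1A and 64 to 521 for Alg1E. The 9 reads of N2 at 28 h allow a Poisson 95% interval of 4.12 to 17.1 reads, for counting error only.

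In N2, miR-237-3p ranged from 21.9 to 75.9 CPM with a median of 31.5. It ranged from 17.7 to 73.4 CPM in Alg1A (median 38.7) and from 144 to 853 CPM in Alg1E (median 408). It rested on 69 to 286 reads for N2, 26 to 249 for Alg1A and 210 to 3938 for Alg1E. Alg1E overlapped with neither of the other genotypes, and not overlapping on the higher side held for 14.8% of all miRNAs against Alg1A. By mean level miR-237-3p stood at place 164 of 243 in N2 and at place 85 in Alg1E.

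The log2 difference between Alg1E and N2 was 2.71 for lin-4-3p (SE 0.306, edgeR adjusted p = 3.69e-09), a 6.53-fold increase found at 13 of 13 hours. It ranked 19 among the 243 differences ordered from the highest, and miR-237-3p ranked 2 (3.48, SE 0.308, edgeR adjusted p = 2.01e-11), an 11.1-fold increase also found at 13 of 13 hours. The test takes hours as independent, but hourly differences were correlated from 1 hour to the next (lag-1 r = 0.38 for lin-4-3p, 0.61 for miR-237-3p). This makes these p-values too small. Against Alg1A the differences were 3.02 for lin-4-3p (SE 0.310, edgeR adjusted p = 5.73e-10) and 3.61 for miR-237-3p (edgeR adjusted p = 8.48e-12), each at 13 of 13 hours, where 39.1% of all miRNAs were called higher. Over 27 alternative settings the difference from N2 lay between 2.42 and 3.15 for lin-4-3p and between 3.29 and 3.92 for miR-237-3p, called in each. Among 96 hairpins with both arms tested, 73 minor arms were called higher and 4 lower in Alg1E against N2, with a median of 1.66, beside a median of 0.01 over all 243 miRNAs. In Alg1A the differences from N2 were -0.31 for lin-4-3p (95% interval -0.93 to 0.30) and -0.13 for miR-237-3p (95% interval -0.70 to 0.44). The share of reads without a feature was also higher in Alg1E, and its part in these results was not tested.

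As a percentage of a hairpin's own reads, the passenger arm stayed small for lin-4 even in Alg1E, whereas for mir-237 it made up a sizeable part of the reads. Of lin-4 reads in N2, lin-4-3p made up 0.0540% ± 0.0364. The percentage was 0.0459% ± 0.0387 in Alg1A and 0.383% ± 0.133 in Alg1E (SD over 13 hours). Of mir-237 reads in N2, miR-237-3p made up 1.41% ± 0.620. The percentage was 1.505% ± 0.650 in Alg1A and 17.9% ± 7.40 in Alg1E. The highest values in Alg1E were 0.611% for lin-4 at 19 h (Wilson 95% interval 0.561 to 0.666) and 34.7% for mir-237 at 18 h (33.5 to 36.0). In both hairpins the lowest Alg1E share lay above the highest N2 share, 0.188% against 0.128% for lin-4 and 8.82% against 2.45% for mir-237. For how many other hairpins this holds was not counted, so it sets neither hairpin apart. In the limma test below, 86.2% of 94 hairpins had a higher minor to major arm ratio in Alg1E.

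**Figure D4:**
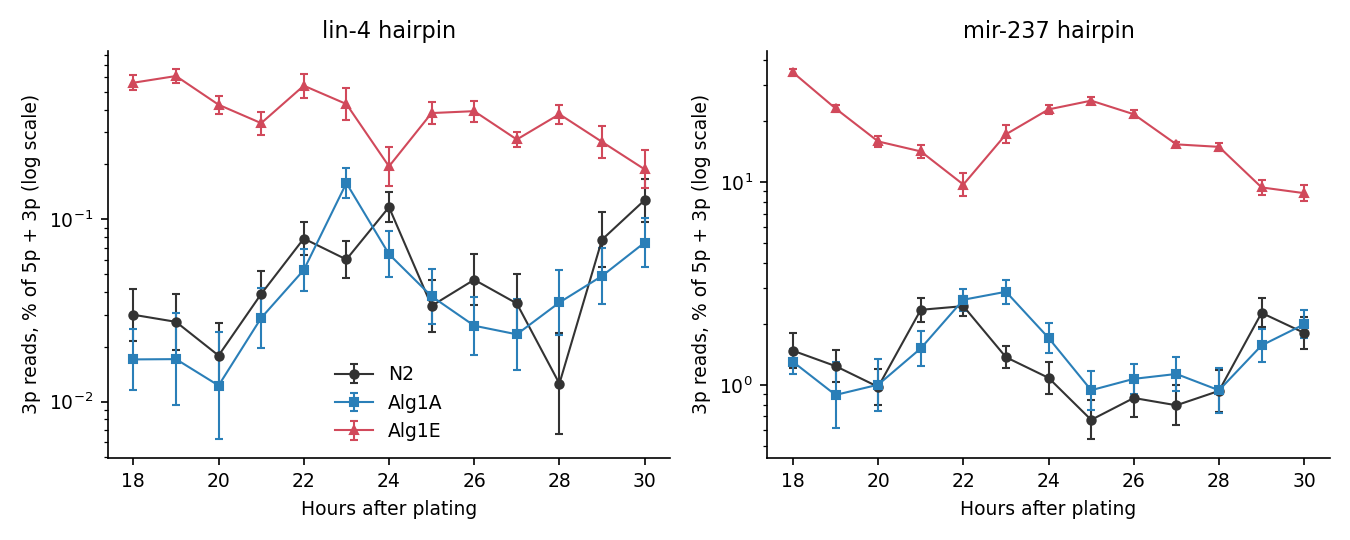
Reads of the 3p arm as a percentage of both arms of the lin-4 hairpin (left) and the mir-237 hairpin (right) on a log scale, by hour and genotype, with Wilson 95% intervals of each library. Alg1E runs from 0.188% to 0.611% for lin-4 and from 8.82% to 34.7% for mir-237, and each of its 13 libraries lies above every N2 library. How many other hairpins separate in this way was not counted.

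limma tested the log2 ratio of the minor to the major arm over 94 hairpins. In Alg1E against N2 the ratio was 8.17-fold higher for lin-4 (log2 3.03, SE 0.311, limma adjusted p = 3.08e-10) and 15.5-fold higher for mir-237 (log2 3.95, SE 0.264, limma adjusted p = 1.79e-14), each at 13 of 13 hours. Of all hairpins 86.2% were called higher, with a median of 2.05, and lin-4 ranked 21 and mir-237 ranked 4 of 94. Against Alg1A the log2 changes were 3.31 (SE 0.311) and 3.83 (SE 0.264), ranks 11 and 4, with limma adjusted p = 5.91e-11 and 5.35e-14, in a comparison that called 81.9% of hairpins higher. Between Alg1A and N2, where 20.2% of hairpins were called higher, the change was -0.28 for lin-4 (SE 0.311, limma adjusted p = 0.492) and 0.12 for mir-237 (SE 0.264, limma adjusted p = 0.723). The change in Alg1E against N2 was larger for mir-237 than for lin-4 by 0.92 ± 1.36 log2 (SD) at 9 of 13 hours, which did not pass adjustment over 3 comparisons (exact two-sided sign-flip p = 0.0259, adjusted 0.0776). Leaving out each of 13 hours in turn, it passed in 2 cases, without 22 h or 28 h (1.05 in both, exact sign-flip adjusted p = 0.0308 and 0.0227). Over the 13 cases the difference ran from 0.66 to 1.05 and the adjusted p reached 0.155 (exact sign-flip). The corresponding differences were 0.52 ± 1.03 between Alg1E and Alg1A and 0.40 ± 0.76 between Alg1A and N2 (SD, exact sign-flip adjusted p = 0.0913 for both). Each passed in 1 of 13 such cases, without 22 h (0.68, exact sign-flip adjusted p = 0.0308) and without 28 h (0.55, exact sign-flip adjusted p = 0.0205), respectively. In the other cases the adjusted p reached 0.183 for both (exact sign-flip).

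**Figure D5:**
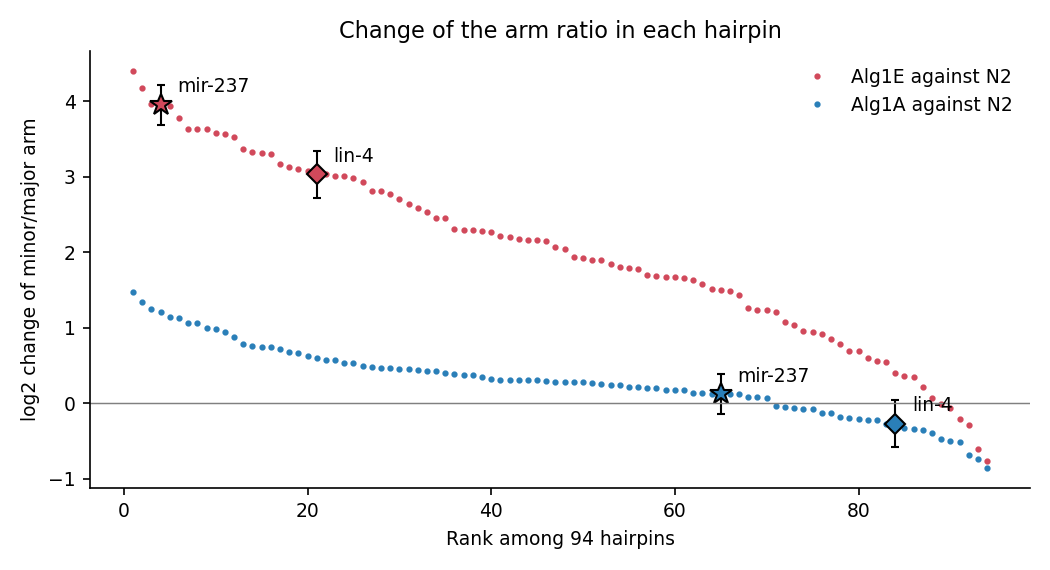
log2 change of the minor to major arm ratio in 94 hairpins, ordered from the highest, for Alg1E against N2 (red) and Alg1A against N2 (blue), with the lin-4 hairpin (diamond) and the mir-237 hairpin (star) marked with their SE. In Alg1E, mir-237 is at rank 4 with 3.95 and lin-4 at rank 21 with 3.03, and in Alg1A they are at ranks 65 and 84.

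The passenger arms were not steady over the hours. In N2, miR-237-3p lay at 21.9 to 31.5 CPM from 18 to 20 h, at 49.7 to 71.1 from 21 to 23 h, at 23.8 to 34.9 from 24 to 28 h, and at 75.9 and 71.7 at 29 and 30 h. Alg1A showed a like course, with 50.6 to 73.4 CPM from 22 to 24 h, 22.3 to 38.7 from 25 to 28 h, and 41.6 and 54.8 at the end. In Alg1E the level fell from 573 CPM at 18 h to 144 at 22 h, was 664 to 853 from 24 to 27 h, and was 254 and 258 at 29 and 30 h. The hours of low level in Alg1E, 21 to 23 h and 29 to 30 h, were hours of high level in N2. The hourly log2 difference between the genotypes ran from 1.06 at 22 h to 5.12 at 25 h, with a mean of 3.95 from 18 to 20 h, 2.89 from 21 to 25 h and 3.40 from 26 to 30 h.

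lin-4-3p in N2 was at 5.55 to 11.2 CPM from 18 to 21 h, at 20.6 to 32.7 from 22 to 24 h, at 3.57 to 12.4 from 25 to 28 h, and at 17.7 and 32.2 at 29 and 30 h. In Alg1A its highest level, 41.0 CPM, came at 23 h. In Alg1E it was highest at 18 and 19 h (130 and 147 CPM) and lowest at 24 and 30 h (39.1 and 38.1). It was at 116 CPM at 22 h and at 87.2 to 95.5 from 25 to 27 h. The hourly log2 difference of Alg1E from N2 was 0.25 at 24 h and 0.24 at 30 h, the hours of highest level in N2. At 22 and 23 h, where N2 was also high, it was 2.46 and 1.77, and at 19 and 28 h it was 4.04. A high N2 value lowers this difference by itself.

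A change with time was tested within each genotype by a natural spline with 3 degrees of freedom, its direction read from the fitted change between 18 and 30 h. The p-value is for any change over the hours, and the fitted change itself was not tested. In N2, miR-237-3p rose (1.86, edgeR adjusted p = 0.0215), and 39.5% of all miRNAs were called. In Alg1E, where 25.1% were called, miR-237-3p fell (-1.71, edgeR adjusted p = 0.00365), lin-4-3p fell (-1.92, edgeR adjusted p = 0.0354) and miR-237-5p rose (0.81, edgeR adjusted p = 0.0117). In Alg1A, where 44% were called, lin-4-5p fell (-1.30, edgeR adjusted p = 0.0284). With 2 degrees of freedom 4 of these 5 calls were lost: miR-237-3p in N2 (0.58, edgeR adjusted p = 0.710) and in Alg1E (-0.013, edgeR adjusted p = 0.784), lin-4-3p in Alg1E (-1.27, edgeR adjusted p = 0.0999) and lin-4-5p in Alg1A (-0.78, edgeR adjusted p = 0.110). The other 7 of these 12 tests did not pass, among them lin-4-5p in N2 (-0.56, edgeR adjusted p = 0.161) and in Alg1E (-0.44, edgeR adjusted p = 0.401). For arms with a pair of maxima such a fitted change depends on where the hours end, so it does not describe their course. A spline with 5 degrees of freedom, chosen after these courses were seen, called lin-4-3p, miR-237-5p and miR-237-3p in N2 and in Alg1A. It called miR-237-5p and miR-237-3p but not lin-4-3p (edgeR adjusted p = 0.0662) in Alg1E, and it did not call lin-4-5p in any genotype. The fitted change of lin-4-5p in Alg1A was -1.13 with it (edgeR adjusted p = 0.0754). Without 18 and 19 h the fitted change from 20 to 30 h was -0.53 for lin-4-5p in Alg1A (edgeR adjusted p = 0.0149). It was -0.22 for miR-237-3p in Alg1E (edgeR adjusted p = 0.0275). Without those hours a change of lin-4-3p was called in N2 (fitted change 2.42) and Alg1A (2.36), and not in Alg1E (-1.32, edgeR adjusted p = 0.200).

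The difference in time course was tested by the interaction of genotype and spline. It was called for both passenger arms between Alg1E and N2 (edgeR adjusted p = 0.0374 for lin-4-3p and 0.000761 for miR-237-3p), where 33.3% of all miRNAs were called and miR-237-3p had the third smallest p. It was called for both between Alg1E and Alg1A (edgeR adjusted p = 0.0424 and 0.0240), where 17.7% were called. The guide arms were not called in either comparison with 3 degrees of freedom (edgeR adjusted p from 0.134 to 0.536). With 5 degrees of freedom, miR-237-5p was called between Alg1E and N2 and between Alg1E and Alg1A (edgeR adjusted p = 0.0362 and 0.0360). Between Alg1A and N2 the smallest adjusted p of the 4 arms was 0.176, for miR-237-5p, and 4.53% of all miRNAs were called. A spline with 2 degrees of freedom did not call a difference for any of the 4 arms.

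The 4 other guide arms of the heterochronic miRNAs, which time larval stages with lin-4, were let-7-5p, miR-48-5p, miR-84-5p and miR-241-5p. let-7 acts late, in the passage from larva to adult, and the other three belong to the let-7 family. Against N2, 4 of 4 were called lower in Alg1E with TMM, beside 38.7% of all tested miRNAs. The differences were -1.99 for miR-241-5p, -0.98 for let-7-5p, -0.45 for miR-84-5p and -0.38 for miR-48-5p. Their median was -0.71, beside 0.01 over all miRNAs and -0.48 over the major arms of 96 hairpins, of which 65 were called lower. With total counts 2 of 4 were called lower, and with TMM from major arms 1 of 4, miR-241-5p, beside the splits over all miRNAs given above. In Alg1A, edgeR called 0 of 4, beside 10.7% of all miRNAs, and 0 had an unadjusted p under 0.05. The share of all miRNAs at that unadjusted threshold is not given. The arm ratio of their hairpins was 4.10-fold to 8.17-fold higher in Alg1E, so that mir-237 at 15.5-fold lay above all 4 and lin-4 at 8.17-fold lay level with let-7. let-7-5p differed from lin-4-5p in its course: it ran from 480 CPM at 18 h to 20606 CPM at 30 h in N2, while the highest N2 level of lin-4-5p was 1.64 times its lowest. At 23 h let-7-5p was at 20097 CPM in N2, 8077 in Alg1A and 1105 in Alg1E, so libraries of the same hour differed in a miRNA that rises with larval age. The part of this in the differences at matched hours was examined only through N2 libraries 1 h and 2 h younger, against which Alg1E was higher by 2.51 log2 in lin-4-3p and 3.35 in miR-237-3p at 2 h.

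By the Pearson correlation of log2 CPM over all 39 libraries, the 3 miRNAs most like lin-4-5p were miR-52-5p (r = 0.87, Spearman rho = 0.83), miR-57-5p (r = 0.86, rho = 0.88) and miR-795-5p (r = 0.81, rho = 0.86). Within genotypes these r were 0.58, 0.79 and 0.62 for N2, 0.95, 0.87 and 0.93 for Alg1A, and 0.58, 0.75 and 0.46 for Alg1E. Without the libraries that stood apart, r was 0.77, 0.62 and 0.91 for Alg1A (n = 11) and 0.68, 0.60 and -0.24 for Alg1E (n = 12), so the likeness of miR-795-5p within Alg1E rested on the 27 h library. Those most like miR-237-5p were miR-64-5p (r = 0.87, rho = 0.76), miR-65-5p (r = 0.85, rho = 0.80) and miR-82-3p (r = 0.83, rho = 0.78). Within genotypes these r were 0.63, 0.84 and 0.83 for N2, 0.66, 0.62 and 0.77 for Alg1A, and 0.95, 0.95 and 0.91 for Alg1E. The passenger arms were most like other minor arms. For lin-4-3p these were miR-37-5p (r = 0.90, rho = 0.90), miR-237-3p (r = 0.89, rho = 0.89) and miR-52-3p (r = 0.89, rho = 0.87). For miR-237-3p they were miR-44-5p (r = 0.96, rho = 0.87), miR-80-5p (r = 0.94, rho = 0.84) and miR-54-5p (r = 0.94, rho = 0.76). These values are descriptions, given with no p, and over 39 libraries they carry the difference between genotypes. Over the 36 libraries that did not stand apart, r of the 12 pairs ran from 0.73 to 0.96. Within N2 alone (n = 13), r was 0.87 between lin-4-3p and miR-37-5p, 0.69 between lin-4-3p and miR-237-3p, 0.69 between miR-237-3p and miR-44-5p, and 0.28 between miR-237-3p and miR-54-5p. Within Alg1E, r between the passenger arms of lin-4 and mir-237 was 0.13, and within Alg1A it was 0.76. Between a guide arm and its own passenger arm, r within a genotype ran from -0.22 to 0.52. For lin-4-5p and lin-4-3p it was -0.22 within N2, -0.14 within Alg1A and 0.49 within Alg1E. For miR-237-5p and miR-237-3p it was 0.41, 0.36 and 0.52. Libraries that stood apart were kept in these r. The counts of lin-4-3p were small (9 to 107 reads in N2, 8 to 110 in Alg1A), and the part of counting error in its r was not tested.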

How the data were processed

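The authors deposited raw read counts for each mature miRNA, 1 column a library, and 5 summary entries of the counter, which were left out. The submitters' processing notes name genome build ce11 and, without roles, HTSeq, SAMtools 1.9, Bowtie 1.2.2 and cutadapt 2.3. Per the labels' protocols, libraries came from the QIAseq miRNA Library Kit. How strand, multiple matches and molecular identifiers were handled was not given in the sources used here, so PCR copies may count as reads.

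edgeR 4.0.16 in R 4.3.3 tested 243 miRNAs kept by filterByExpr with its quasi-likelihood test and TMM. Genotypes were compared over 39 libraries with hour as a factor, and time by a natural spline with 3 degrees of freedom. limma 3.58.1 tested log2 arm ratios (prior count 0.5) of 94 hairpins with at least 10 reads per arm on average. P-values were two-sided and adjusted by Benjamini-Hochberg over all features, with a threshold of 0.05. Log2 CPM used a prior count of 2. Single ratios were tested by exact sign-flip over 13 hours, and correlations by 100000 permutations. DESeq2 1.42.0, other scalings, filters, hours and splines were tried. In simulated counts of the comparison of Alg1E with N2, edgeR recovered 46 of 50 miRNAs changed 2-fold and 35 of 50 changed 1.5-fold. In simulated time courses, 34 of 60 trends of 4-fold were recovered as differing between Alg1E and N2. In both, libraries were drawn independently and as many changes went up as down. The recovery therefore does not bear on how calls of the guide arms depend on scaling, or on correlated hours.

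The members, the lists and the alternatives were chosen with earlier results of these data known. Named miRNAs are the 4 arms, 4 other heterochronic miRNAs, the listed tissue and embryo markers and, for each arm, the 3 miRNAs with the highest correlation. The planned search for other miRNAs with the seed of lin-4-5p was not run. The planned hour of crossing the midpoint of the N2 range is not given, since the passenger arms crossed it 3 times in N2 and 0 times in Alg1E.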

Additional observations from a re-analysis of the deposited data

Results flagged for a closer look

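The time course of both passenger arms differed between genotypes by the interaction of genotype and spline. Between Alg1E and N2 the edgeR adjusted p was 0.0374 for lin-4-3p and 0.000761 for miR-237-3p. Between Alg1E and Alg1A it was 0.0424 for lin-4-3p and 0.0240 for miR-237-3p. With 2 degrees of freedom all 4 calls were lost (edgeR adjusted p = 0.203, 0.752, 0.149 and 0.945 in this order), and with 5, chosen after the courses were seen, they were kept (0.00128, 2.69e-05, 0.00240 and 0.000524). The hourly differences between Alg1E and N2 were correlated from 1 hour to the next for miR-237-3p (lag-1 r = 0.61) and lin-4-3p (0.38). Such correlation makes p-values too small in tests that take hours as independent, such as those of level. A smooth difference in course also gives it, and correlation left after the spline was not examined, so the interaction p-values may be too small. A cause for the different courses was not tested.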

How the results depend on the processing

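Over 60 results and 814 recomputed values, 728 were scored as kept, and the cause of the other values was not tested. Differences and fitted changes had to keep direction and side of the threshold, and interactions the side only. A count of miRNAs or hairpins had to stay within a preset fold range of the main count. The 182 miRNAs called between Alg1E and N2, for instance, ran from 147 to 204 over alternatives scored as kept. Both passenger arms and both arm ratios in Alg1E were called against N2 and against Alg1A under all alternatives, even and odd hours included. With total counts, lin-4-5p differed by -0.15 between Alg1E and N2 and 0.075 between Alg1A and N2, and miR-237-5p by -0.20 between Alg1E and Alg1A. With TMM from major arms, lin-4-5p differed by 0.017 (Alg1E against N2), 0.056 (Alg1A against N2) and -0.038 (Alg1E against Alg1A), and miR-237-5p by -0.14 against N2 and -0.016 against Alg1A. lin-4-5p in Alg1A against N2 also turned above 0 with no filter (0.0062), hour as a spline (0.0048), no hour term (0.027) and odd hours (0.070, where lin-4-3p was 0.018). lin-4-5p in Alg1E against N2 was -0.40 on odd hours. miR-237-5p in Alg1E against Alg1A was not called with no hour term (-0.32), without 18 and 19 h (-0.25) or on odd hours (-0.28). Against N2 libraries 1 h and 2 h younger, miR-237-3p in Alg1A was 0.00465 and 0.15, and at 2 h younger the lin-4 arm ratio was 0.13 and the log2 ratio of miR-237-5p to lin-4-5p was 0.010 in Alg1A and 0.044 in Alg1E. Without 18 and 19 h that ratio was -0.20 in Alg1A against N2 and called, and 0.034 in Alg1E against Alg1A. Without 3 libraries that stood apart, an alternative chosen after seeing the data, miR-237-5p in Alg1A was -0.35 against N2, and the log2 ratio of miR-237-5p to lin-4-5p was -0.20 in Alg1A against N2, called, and 0.00047 in Alg1E against Alg1A.

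The 26 miRNAs called between Alg1A and N2 became 51 in a fit of those genotypes alone, 48 without 18 and 19 h, 10 on even and 4 on odd hours, 76 without the 3 libraries, and 71 and 102 against N2 libraries 1 h and 2 h younger. Hairpins called between them numbered 20, and 13 on even hours, 6 on odd hours, 39 without the 3 libraries and 47 at 2 h younger. Leaving out each hour in turn, lin-4-5p in Alg1A against N2 ranged from -0.10 to 0.027. The log2 ratio of miR-237-5p to lin-4-5p then ranged from -0.25 to -0.12 in Alg1A against N2 and from -0.054 to 0.079 in Alg1E against Alg1A. The excess of the mir-237 over the lin-4 arm ratio change ranged from 0.66 to 1.05 in Alg1E against N2, from 0.30 to 0.55 in Alg1A against N2 and from 0.36 to 0.68 in Alg1E against Alg1A.

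With a spline of 2 degrees of freedom, changes over time not called were miR-237-3p in N2 (0.58) and Alg1E (-0.013), lin-4-5p in Alg1A (-0.78) and lin-4-3p in Alg1E (-1.27), and miR-237-5p in Alg1A was 0.20. Its interaction p-values (edgeR adjusted) were 0.203 for lin-4-3p and 0.752 for miR-237-3p in Alg1E against N2, and 0.149 and 0.945 against Alg1A. miRNAs changing with time in Alg1E numbered 40 in place of 61. Without 18 and 19 h, changes over time were 2.42 for lin-4-3p in N2, 2.36 for lin-4-3p, 0.50 for miR-237-5p and 1.503 for miR-237-3p in Alg1A, and -1.32 for lin-4-3p in Alg1E, and the interaction p of miR-237-5p in Alg1E against N2 was 0.0159 (edgeR adjusted). The 3 Alg1A values were the same without the 3 libraries, where lin-4-3p in Alg1E was -1.81. With 5 degrees of freedom they were 1.57 for lin-4-3p and 0.73 for miR-237-5p in N2, -1.13 for lin-4-5p, 1.04 for lin-4-3p, -0.33 for miR-237-5p and 0.34 for miR-237-3p in Alg1A, and -1.99 for lin-4-3p in Alg1E, with interaction p-values for miR-237-5p of 0.0362 against N2 and 0.0360 against Alg1A (edgeR adjusted). Time courses called between Alg1E and N2 were 81, and 14 with 2 degrees of freedom. Between Alg1E and Alg1A they were 43, and 11 with 2 and 73 with 5 degrees of freedom, 25 without 18 and 19 h and 26 without the 3 libraries. Between Alg1A and N2 edgeR called 11, and 0 with 2 degrees of freedom (13 at an unadjusted p under 0.05), without 18 and 19 h (31) and without the 3 libraries (32).

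Libraries were paired by hour in the fits between genotypes and in the sign-flip tests, and the values with no hour term are given above; the labels give no replicate numbers to pair by. For lin-4-3p, with 8 reads in 1 library, depth limits what can be read from single hours.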
